A study of Mus musculus with 36 samples.

Results

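Expression of 6 genes, out of 53379 in the deposited tables, was described in mice carrying the ASPSCR1-TFE3 fusion of translocation renal cell carcinoma and in control mice: the MiT/TFE transcription factors Tfe3, Tfeb, Tfec and Mitf, the mouse gene of the fusion partner, Aspscr1, and Vcp, whose protein binds the Aspscr1 protein. They were chosen by symbol as the 4 members of the factor family, the fusion partner and its binding partner, by a rule that uses no measured value, although earlier results of these data were known. RNA came from formalin-fixed, paraffin-embedded tissue. The tumor-bearing mice had the genotype Sglt2-Cre; ASPSCR1-TFE3 LSL/+, in which a stop cassette in front of the fusion is removed by a Cre under the Sglt2 promoter, and 6 of them gave kidney tumors (11 libraries), non-transformed kidneys (4 libraries from 4 mice), retro-orbital tumors (4 libraries from 4 mice) and brain tumors (3 libraries from 3 mice). Control kidneys were 6 libraries from 3 Sglt2-Cre mice without the fusion allele. In the fetal model, dysmorphic kidneys came from 5 Pax8-Cre; ASPSCR1-TFE3 LSL/+ fetuses, and the 3 control fetal kidneys were labelled Pax8-Cre. The Sglt2 promoter is active in the proximal tubule and the Pax8 promoter in the nephron and collecting system more widely. The sample labels thus give every mouse a Cre, controls included, but the description of the series also allows fetal controls with the LSL allele and no Cre, so the genotype of each control fetus is uncertain. Ages were not given. Libraries of the same mouse and tissue were summed, which left 28 animal-level samples.

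MiT/TFE factors are basic helix-loop-helix leucine zipper proteins that bind E-boxes as dimers with one another. Rag GTPases bring TFEB, TFE3 and MITF to the lysosome, where mTORC1 phosphorylates them so that they stay in the cytoplasm, and they switch on lysosomal and autophagy genes when they reach the nucleus. MITF is best known as the master regulator of melanocytes and also acts in osteoclasts, mast cells and the retinal pigment epithelium, while Tfec is best known from macrophages. The Aspscr1 protein, also called TUG, tethers GLUT4 storage vesicles and carries a UBX domain that binds the hexameric ATPase VCP (p97), which pulls ubiquitinated proteins out of complexes and membranes. In the fusion the N-terminal part of ASPSCR1 is joined to the DNA-binding part of TFE3. How reads from the fusion cassette were assigned was not given in the sources used here, so counts of Tfe3 and Aspscr1 may or may not hold reads of the transgene.

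The annotation (GENCODE M21, GRCm38) places Tfe3 (ENSMUSG00000000134.17) on chromosome X from 7762560 to 7775202, Tfeb (ENSMUSG00000023990.18) on chromosome 17 from 47737030 to 47792419, Mitf (ENSMUSG00000035158.15) on chromosome 6 from 97807052 to 98021349 and Aspscr1 (ENSMUSG00000025142.17) on chromosome 11 from 120672973 to 120709447, all on the plus strand. Tfec (ENSMUSG00000029553.10) lies on the minus strand of chromosome 6 from 16833373 to 16898441, and Vcp (ENSMUSG00000028452.7) on the minus strand of chromosome 4 from 42979963 to 43000507. Whether the counting used strand was not given, so reads of genes that overlap on the opposite strand cannot be told apart. The antisense gene Gm17178 over Aspscr1 reached at most 0.414 CPM (read counts scaled to library size), 1700022I11Rik at the end of Vcp at most 0.522 CPM and the processed pseudogene Gm15531 inside Mitf at most 0.628 CPM. The processed pseudogene Vcp-rs on the X chromosome held 5.01 to 13.4 CPM, and reads that fit it and Vcp equally well are uncertain for both.

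The E-box CACGTG, the palindrome that these factors bind, was looked for in the 250 bases before each RefSeq start (GRCm38.p6) of the genes, and the window that holds it is shown. It occurred before 1 of 13 starts of the 6 genes, and before 6.02% of all 32851 starts. The match lay 142 bases before 1 of the 3 Aspscr1 starts (chr11:120672801-120672866, plus strand), with the E-box in capitals.
Aspscr1 window: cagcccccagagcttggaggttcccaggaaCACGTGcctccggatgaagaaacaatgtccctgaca
The related hexamer CATGTG, searched on both strands as CATGTG and CACATG with no overlap with CACGTG, was present before 12.3% of all starts and before no start of the 6 genes. A match describes letters only, and binding was not measured.

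Levels were read as CPM after trimmed mean of M-values (TMM) scaling over all 28 samples, and levels of different genes are compared only per kilobase of exon. Library totals were 80205573 to 121415057 counts, and the lowest member count in any animal was 55, for Tfec in a brain tumor. Fetal libraries differed in the tissue they held. Summed CPM over 9 intestinal genes was 2936 in control fetus 2, 4027 in control fetus 3 and 2941 in dysmorphic fetus 5, against at most 38.1 in the other 5 fetuses. Dysmorphic fetus 2 held 2402 CPM of 6 stomach genes, against at most 4.26 in the other fetuses. Among adult samples, the control kidney of mouse 1 held 54.2 CPM and the kidney tumor of fusion mouse 2 67.7 CPM of these, against at most 3.12 in the others. That tumor also held 9.28 CPM of Y-linked genes, under the limit of 10 for a male. The other tumors of this mouse held 0.68 and 0.883 CPM. The part of stray reads in the adult levels was not tested. Both marker lists were chosen after these libraries were seen. The fetal comparisons of the 6 genes and of some pathway lists are therefore also given without the fetuses that held such transcripts. Counts of cell marker genes, the order of levels and the tests of all pairs of groups are given only with all fetuses.

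Per kilobase, the control kidneys expressed Vcp far above the other 5 genes, at 78.8 ± 7.13 CPM per kilobase (SD, n = 3). Aspscr1 stood at 7.52 ± 0.822, Mitf at 6.19 ± 0.86 and Tfec at 5.74 ± 0.4, while Tfeb at 2.5 ± 0.521 and Tfe3 at 2.36 ± 0.378 CPM per kilobase were the lowest of the 6. The makeup of the family varied between the groups. Tfec and Mitf made up 34.4% ± 2.55 and 36.8% ± 1.27 of the summed per-kilobase level of the 4 factors in control kidneys, and Tfe3 14.0% ± 0.561. In kidney tumors the share of Tfe3 was 31.3% ± 8.92 (n = 6) and that of Tfec 20.9% ± 7.95. In retro-orbital tumors Tfe3 reached 46.7% ± 4.53 (n = 4) and Tfec 4.77% ± 2.79, and in brain tumors Mitf held 43.8% ± 9.34 (n = 3) and Tfec 2.71% ± 0.99. The summed level of the 4 factors was 16.8 ± 2.07 CPM per kilobase in control kidneys, 12.8 ± 0.448 in non-transformed kidneys, 9.66 ± 1.49 in kidney tumors, 6.95 ± 0.93 in retro-orbital tumors and 5.64 ± 1.5 in brain tumors. These shares were not tested, and part of them rests on the length used: with the longest transcript in place of all exons, Tfeb made up 22.4% of the family in control kidneys in place of 14.8%. The order of Tfec and Mitf there also turned, to 35.5% for Tfec and 29.3% for Mitf.

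**Figure D1:**
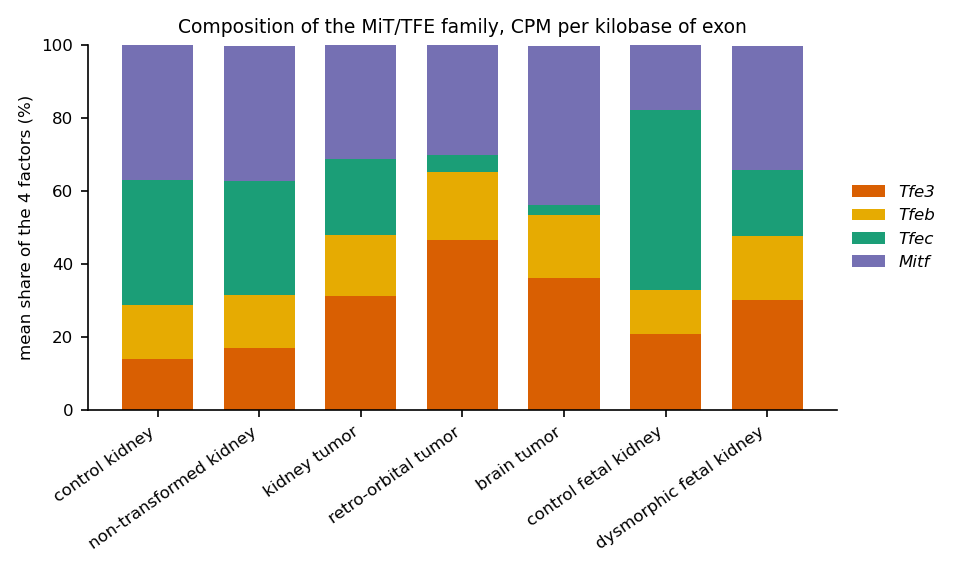
Stacked bars of the mean share (percent) of Tfe3, Tfeb, Tfec and Mitf in the summed CPM per kilobase of exon of the 4 factors, for each of the 7 sample groups. The Tfe3 share was 14.0% in control kidneys and 46.7% in retro-orbital tumors, and the Tfec share 34.4% and 4.77%.

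The comparison of kidney tumors with control kidneys asked how the fusion-driven tumors differ from the normal organ. Tfec and Mitf were both lower in kidney tumors, with no overlap between groups, while Tfe3, Tfeb, Aspscr1 and Vcp did not pass the test. Tfec was 29.7, 34.1 and 32.4 CPM in control mice 1 to 3. In the kidney tumors of fusion mice 1 to 6 it was 18.2, 3.42, 9.1, 10.7, 12.8 and 14.9 CPM. Every tumor-bearing kidney was thus below every control kidney, and fusion mouse 2 was the lowest. The fold change of Tfec was 2.82-fold lower (log2 fold change -1.49 ± 0.4 SE, edgeR adjusted p = 0.0317). Mitf was 32.7, 39.2 and 43.2 CPM in control kidneys. In kidney tumors it was 25.7, 16.9, 14.2, 22.9, 19.2 and 13.5 CPM in the same order of mice. Mitf was 2.07-fold lower (-1.05 ± 0.222, edgeR adjusted p = 0.0137), again with no overlap. Thus 2 of the 6 genes were called, both lower, where edgeR called 19.0% of 23578 genes in either direction and 6.51% as lower, and the groups did not overlap for 29.8% of genes. In bulk tissue, fewer cells of a type and less RNA per cell cannot be told apart.

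Tfe3 itself, the factor whose human counterpart supplies the DNA-binding part of the fusion, was 17.9, 23.1 and 24.6 CPM in control kidneys and 31.2, 34.8, 31.4, 22.5, 17.8 and 27.3 CPM in kidney tumors. It stood above every control in 4 of the 6 mice, and the 2 others were fusion mice 4 and 5 (0.31 ± 0.229, edgeR adjusted p = 0.353). Those same mice kept the most proximal tubule RNA, with 8119 and 8385 CPM summed over 10 proximal tubule genes against 651 to 2602 CPM in the other 4, and the part of this in the Tfe3 level was not tested. Tfeb averaged 9.11 ± 1.98 CPM in kidney tumors and 14.2 ± 2.95 in control kidneys (-0.66 ± 0.228, edgeR adjusted p = 0.0707). Tfeb was called in 4 of 10 alternatives, with a filter at a mean of 1 CPM (edgeR adjusted p = 0.0469), in DESeq2 (0.0296), when libraries were not summed (0.00842) and in limma-voom with the animal as a random block (0.0188), and the highest adjusted p was 0.466, against a 1.5-fold change. Aspscr1 was 31.6 to 39.2 CPM in control kidneys and 21.2 to 28.8 CPM in 5 of the kidney tumors, but 41.5 CPM in that of fusion mouse 5 (-0.37 ± 0.209, edgeR adjusted p = 0.226). Without fusion mouse 5, Aspscr1 passed the threshold (-0.49, edgeR adjusted p = 0.0415), as it did when libraries were not summed (0.0204). Vcp was 382 ± 34.6 CPM in control kidneys and 462 ± 72.4 in kidney tumors (0.25 ± 0.159, edgeR adjusted p = 0.278).

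Markers of the cell types that use these factors were summed in the same samples. Where edgeR called 12.5% of all genes as higher in kidney tumors, it called 8 of 14 macrophage genes, 5 of 10 tested pigment cell genes, 4 of 6 mast cell genes and 1 of 6 tested osteoclast genes, with median log2 fold changes of 1.59, 4.13, 3.18 and 0.21, and none of these as lower. In kidney tumors the summed CPM of 14 macrophage genes was 370 to 1249, against 247 to 277 in control kidneys. Pigment cell genes (11) summed to 267 to 825 against 57.8 to 62.9 CPM, osteoclast genes (7) to 60.2 to 87.0 against 40.8 to 53.1 CPM, and mast cell genes (6) to 5.95 to 32.6 against 1.95 to 2.79 CPM. In controls, 4 of the pigment cell genes stayed under 0.1 CPM in every animal. Each of these sums was higher in the kidney tumors of every fusion mouse than in every control, opposite in direction to Mitf and Tfec. Retinal pigment epithelium genes (6) summed to 0.824 to 4.02 CPM in kidney tumors, with a median of 1.47, and to 2.32 to 2.97 CPM in controls, with a median of 2.78. Proximal tubule genes summed to 2602, 651, 683, 8119, 8385 and 673 CPM in fusion mice 1 to 6 against 11400 to 12490 CPM in controls, but 0 of the 10 were called (median -1.84, with 2 at an unadjusted p under 0.05). Distal nephron and collecting duct genes summed to 333 to 5891 against 6134 to 6820 CPM (1 of 10 called, as higher) and podocyte genes to 72.6 to 255 against 330 to 398 CPM (0 of 6 called). Of 8 proliferation genes 8 were called as higher, at sums of 380 to 577 against 53.7 to 76.2 CPM. The part of any of these cell types in the Tfec and Mitf levels was not tested. The Tfec call was lost without control mouse 1, 2 or 3 (edgeR adjusted p = 0.0749, 0.116 and 0.106), without fusion mouse 3 (0.0621), against a 1.5-fold change (0.095) and with all 7 groups in 1 fit (0.18). Over the 10 alternatives other than left-out mice its adjusted p ran from 0.00475 to 0.18. The Mitf call was lost without control mouse 2 or 3 (0.0706 and 0.078) and against a 1.5-fold change (0.0835), in a range of 0.000116 to 0.0835.

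**Figure D2:**
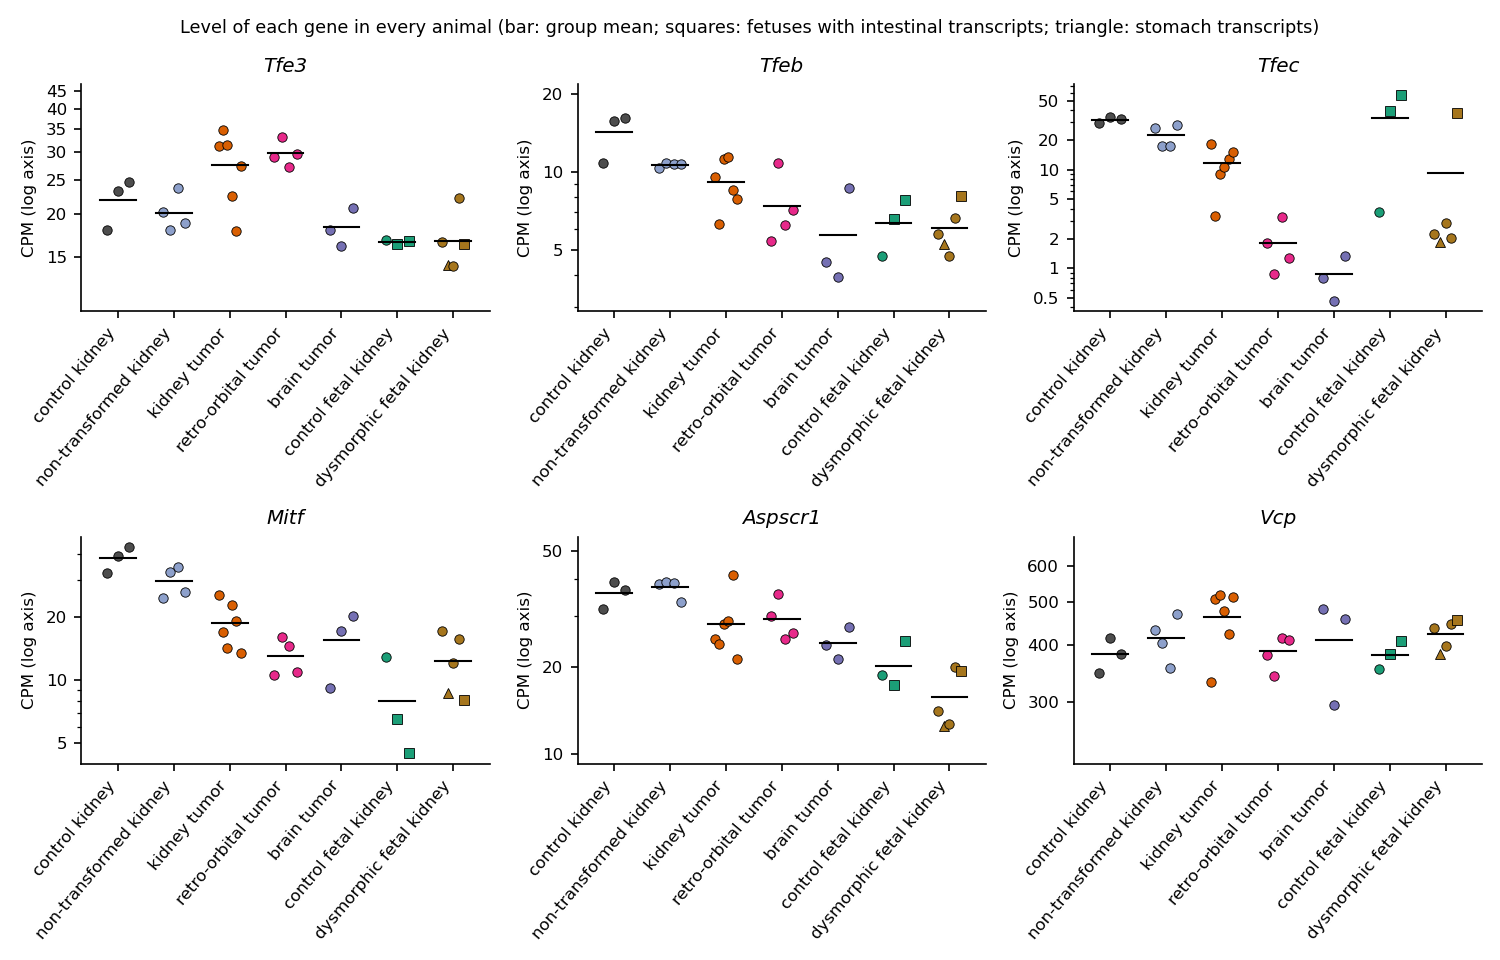
CPM (log axis) of each of the 6 genes in every animal of the 7 groups, with a bar for the group mean, squares for the 3 fetuses with intestinal transcripts and a triangle for the fetus with stomach transcripts. Tfec spans 0.466 to 57.2 CPM and its 3 highest fetal values are the squares, whereas Vcp spans 295 to 516 CPM.

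Non-transformed kidneys of fusion mice, which carry the fusion allele and Sglt2-Cre, allowed a comparison within the mouse. Mitf was 24.8, 32.8, 34.6 and 26.3 CPM in the non-transformed kidneys of fusion mice 1, 3, 4 and 5, and 25.7, 14.2, 22.9 and 19.2 CPM in their kidney tumors. It was lower in the tumor in 3 of the 4 mice, and level in mouse 1, and across all samples it was 1.64-fold lower in kidney tumors (-0.71 ± 0.213, edgeR adjusted p = 0.0453). With the mouse as a block the difference was -0.60 and the edgeR adjusted p was 0.211. Tfec was 26.6, 17.3, 17.4 and 28.3 CPM in the same non-transformed kidneys and was lower in the tumor of each of the 4 mice, by 0.55 to 1.14 on the log2 scale. It did not pass the test (-1.004 ± 0.371, edgeR adjusted p = 0.0872, 0.0646 with the mouse as a block, and 0.0493 in limma-voom on unsummed libraries). Thus 1 of 6 genes was called, and as lower, against 17.1% of 21930 genes called and 5.02% called as lower. For no member did the groups stay apart, which they did for 18.2% of genes. Of the cell markers, 9 of 14 macrophage, 4 of 6 mast cell, 3 of 10 tested pigment cell and 8 of 8 proliferation genes were called as higher in kidney tumors. None of these was called as lower. Proximal tubule genes summed to 651 to 8385 CPM in kidney tumors against 11330 to 14350 in non-transformed kidneys (0 of 10 called). The part of these cell types in the Mitf and Tfec levels was not tested. The Mitf call was kept in 6 of 11 alternatives, with an adjusted p from 0.00827 to 0.428, and leaving out fusion mouse 2, 3, 4, 5 or 6 each ended it (edgeR adjusted p = 0.0751, 0.199, 0.104, 0.0664 and 0.0632).

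Tfe3 was higher in the kidney tumor than in the non-transformed kidney by 0.63 and 0.81 on the log2 scale in fusion mice 1 and 3, and differed by -0.07 and -0.08 in fusion mice 4 and 5 (0.40 ± 0.195 across all samples, edgeR adjusted p = 0.175). Aspscr1 was 33.5 CPM in the non-transformed kidney of fusion mouse 5 and 38.7 to 39.2 CPM in those of the other 3 mice. The difference from kidney tumors was -0.47 ± 0.189 (edgeR adjusted p = 0.112), and without fusion mouse 5 it was -0.68 (edgeR adjusted p = 0.0156). Aspscr1 also passed when libraries were not summed, in edgeR (adjusted p = 0.0266) and in limma-voom (0.0142). Tfeb (-0.27 ± 0.179) and Vcp (0.10 ± 0.138) had edgeR adjusted p-values of 0.301 and 0.62.

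Between non-transformed and control kidneys, edgeR called none of the 6 genes and 2 of 21019 genes in all (0.00952%). At an unadjusted p below the same limit of 0.05 there were 2 members, Tfec and Tfeb, and DESeq2 called none, with 3 members at that unadjusted limit. Tfec lay lower in each of the 4 non-transformed kidneys (17.3 to 28.3 CPM) than in each control (29.7 to 34.1 CPM), and the groups stayed apart for 11.5% of all genes (-0.51 ± 0.201, edgeR adjusted p = 0.39). The control mice were all female by their Y-linked transcripts, and the male fusion mice 1 and 5 held 26.6 and 28.3 CPM of Tfec where the female mice 3 and 4 held 17.3 and 17.4 CPM. Mitf was split the other way, at 24.8 and 26.3 CPM in the males and 32.8 and 34.6 CPM in the females. With sex as a covariate the Tfec difference was -0.88 ± 0.119 (edgeR adjusted p = 0.129). Tfeb was tight in the non-transformed kidneys at 10.3 to 10.8 CPM, against 10.8 to 16.1 CPM in controls (-0.40 ± 0.165, edgeR adjusted p = 0.398). Mitf (-0.36 ± 0.161), Tfe3 (-0.11 ± 0.157), Aspscr1 (0.08 ± 0.116) and Vcp (0.13 ± 0.122) had adjusted p-values of 0.433 or more in edgeR.

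The tumors outside the kidney were compared with kidney tumors of the same cohort. Tfec was far lower at both sites. It was 1.81, 0.868, 3.28 and 1.27 CPM in the retro-orbital tumors of fusion mice 2, 3, 5 and 6. In the brain tumors of fusion mice 1, 2 and 4 it was 0.802, 0.466 and 1.33 CPM. Each of these tumors lay below the summed kidney tumors of every mouse, the lowest of which held 3.42 CPM, but single kidney tumor libraries of fusion mice 2 and 3 held 2.33 and 1.86 CPM, below the retro-orbital tumor of fusion mouse 5. In retro-orbital tumors Tfec was 6.51-fold lower than in kidney tumors (-2.70 ± 0.524, edgeR adjusted p = 0.00751, and 0.0439 with the mouse as a block), and within a mouse the difference ran from -3.55 to -0.92. In brain tumors it was 12.9-fold lower (-3.69 ± 0.616, edgeR adjusted p = 0.0141), with within-mouse differences from -4.50 to -2.87, but with the mouse as a block the edgeR adjusted p was 0.267. The retro-orbital call held in all 11 alternatives (adjusted p from 1.37e-06 to 0.0439) and was lost without fusion mouse 6 (0.0504). The brain call held in 10 of 11 (5.26e-10 to 0.267) and was lost without fusion mouse 1 (0.0625).

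The other 5 genes were not called at either site when each comparison was fitted with all of its mice. Against kidney tumors, edgeR called 1 of 6 members in retro-orbital tumors, as lower, where it called 17.7% of 22136 genes and 9.45% as lower, and the groups stayed apart for 16.1% of genes. In brain tumors it was again 1 of 6, as lower, where 8.74% of 23391 genes were called and 4.20% as lower, and the groups stayed apart for 15.0%. Mitf was 10.6, 16.1, 14.5 and 11.0 CPM in retro-orbital tumors (-0.55 ± 0.229, edgeR adjusted p = 0.123). In brain tumors it was 9.15, 17.3 and 20.2 CPM (-0.23 ± 0.32, edgeR adjusted p = 0.691). Tfe3 differed from kidney tumors by 0.0898 ± 0.186 in retro-orbital and by -0.55 ± 0.242 in brain tumors (edgeR adjusted p = 0.779 and 0.175). The brain difference of Tfe3 was called with all 7 groups in 1 fit (-0.59, edgeR adjusted p = 0.0202). Tfeb differed by -0.32 ± 0.246 and -0.63 ± 0.332 (0.388 and 0.247). For Aspscr1 the differences were 0.0283 ± 0.198 and -0.18 ± 0.243, and for Vcp -0.28 ± 0.135 and -0.12 ± 0.2, with edgeR adjusted p-values from 0.183 to 0.941. Vcp was called in retro-orbital tumors without fusion mouse 1 (-0.30, edgeR adjusted p = 0.0493). Within a mouse, Tfeb and Vcp were lower in the retro-orbital than in the kidney tumor in 4 of 4 mice and Mitf in 3. Tfe3 and Aspscr1 were higher there in 3 of 4. In brain tumors Tfe3, Tfeb and Aspscr1 were lower in 3 of 3 mice, and Mitf and Vcp in 2. With the mouse as a block none of these 5 genes was called at either site. The Mitf levels stood beside pigment cell sums of 1960 to 2457 CPM in retro-orbital and 1231 to 1448 CPM in brain tumors, both above the kidney tumors of every mouse. Retinal pigment epithelium genes summed to only 1.2 to 3.35 CPM in retro-orbital tumors, within the range of the kidney tumors. In the brain tumors of fusion mice 1, 2 and 4 they summed to 0.511, 6.05 and 11.3 CPM, in the same order as their Mitf levels. Macrophage sums (280, 369 and 1142 CPM), pigment cell sums (1231, 1356 and 1448) and proximal tubule sums (292, 316 and 733) had that order too. Mast cell, osteoclast, nephron progenitor and brain sums did not, and the part of any of these transcripts in Mitf was not tested. Proximal tubule sums were 117 to 1074 CPM in retro-orbital and 292 to 733 CPM in brain tumors. In retro-orbital tumors 8 of 8 proliferation, 3 of 6 endothelial and 2 of 7 smooth muscle and fibroblast genes were called as higher, and 3 of 7 nephron progenitor genes as lower. In brain tumors 3 of 10 brain genes were called as higher, and 2 of 6 endothelial and 2 of 7 smooth muscle and fibroblast genes as lower. The part of any of these cell types in the Tfec difference was not tested.

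Brain and retro-orbital tumors were then set against each other, and Tfe3 was the member whose levels stood apart. It was 29.1, 33.1, 27.3 and 29.7 CPM in retro-orbital tumors, and 17.9, 16.1 and 20.8 CPM in brain tumors. The groups did not overlap, as for 18.9% of all genes, and in fusion mouse 2, which had both tumors, the difference was -0.86. Tfe3 was 1.65-fold lower in brain tumors (-0.73 ± 0.185), with an edgeR adjusted p of 0.0924 that missed the threshold. It was called by DESeq2 (adjusted p = 0.000332) and in the edgeR fit of all 7 groups (0.0171), in a range of 0.000332 to 0.494 over 8 alternatives. No member was called by edgeR here, where 1.73% of 21037 genes were, and 1 member, Tfe3, had an unadjusted p under 0.05. Tfec (-1.07 ± 0.585, edgeR adjusted p = 0.345), Tfeb (-0.40 ± 0.403), Mitf (0.24 ± 0.331), Aspscr1 (-0.29 ± 0.208) and Vcp (0.07 ± 0.197) did not pass. Brain genes (10) summed to 393 to 2638 CPM in brain tumors and 110 to 145 CPM in retro-orbital tumors, with 1 of the 10 called. Other cell types also differed, with 4 of 6 endothelial, 3 of 7 smooth muscle and fibroblast, 2 of 7 lymphocyte and 2 of 6 podocyte genes called as lower in brain tumors. The part of these cell types in the Tfe3 level was not tested.

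**Figure D3:**
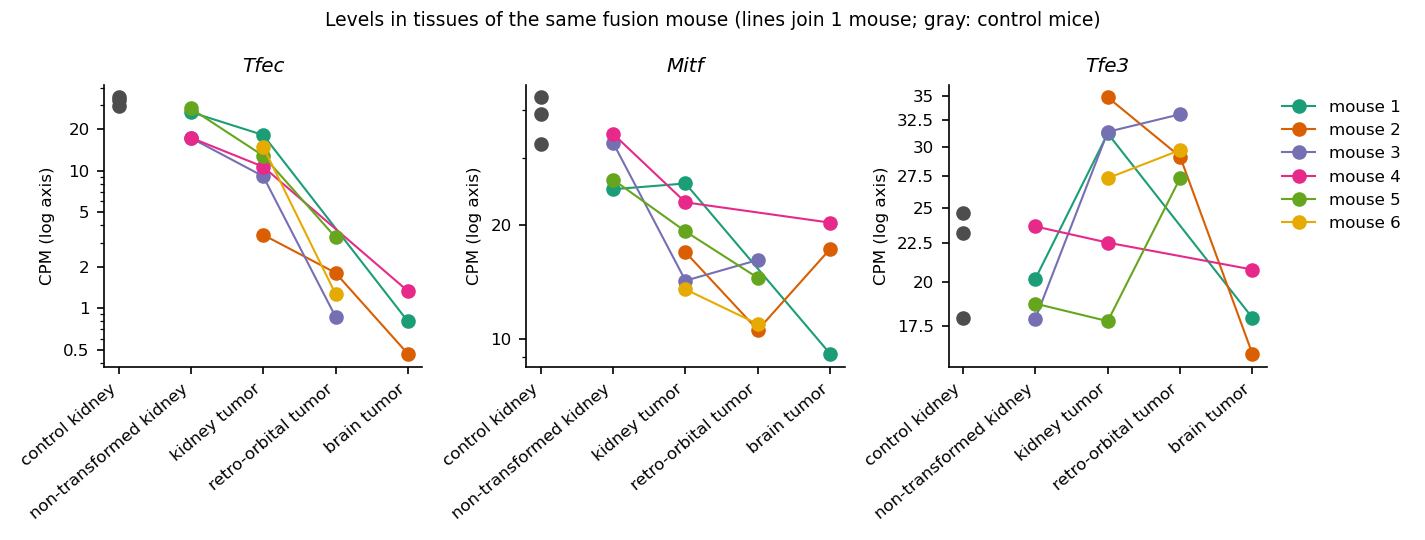
CPM (log axis) of Tfec, Mitf and Tfe3 in the tissues of each fusion mouse, joined by a line per mouse, beside the 3 control kidneys in gray. Tfec lies lower in the kidney tumor than in the non-transformed kidney in 4 of 4 mice, and lower still in every retro-orbital and brain tumor, whereas Tfe3 is 27.3 to 33.1 CPM in retro-orbital and 16.1 to 20.8 CPM in brain tumors.

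Kidney tumors of the same mouse were closer, by the median, for the other genes than for Tfec. Between the pair of kidney tumor libraries of each of 5 mice, the median absolute log2 difference was 0.08 for Aspscr1, 0.16 for Vcp, 0.21 for Mitf, 0.23 for Tfe3 and 0.31 for Tfeb. For Tfec the median was 0.56 and the highest value 3.19, in fusion mouse 3, whose libraries held 1.86 and 16.9 CPM. In control kidneys the pair differed by at most 0.11 for Tfec. The medians over the 3 control mice were 0.03 for Tfe3 and for Tfec, 0.10 for Mitf and 0.13 for Aspscr1. They were 0.15 for Vcp and 0.39 for Tfeb.

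In the fetal model none of the 6 genes was called between dysmorphic and control kidneys, and none had an unadjusted p under 0.05 in edgeR or DESeq2. edgeR called 2.67% of 22690 genes, and the groups stayed apart for 14.4% of genes but for no member. Tfec was 3.71, 39.1 and 57.2 CPM in control fetuses 1 to 3, and 2.24, 1.83, 2.87, 2.03 and 37.3 CPM in dysmorphic fetuses 1 to 5. The high values were exactly those of the 3 fetuses with intestinal transcripts, and the fetuses without them held 1.83 to 3.71 CPM. Over all fetuses the Tfec difference was -1.88 ± 1.24 (edgeR adjusted p = 0.44), and without those 3 fetuses, which leaves 1 control assumed to vary like the dysmorphic group, it was -0.70 ± 0.366 (edgeR adjusted p = 0.491), and -0.62 ± 0.384 (0.468) without the fetus with stomach transcripts as well. Without dysmorphic fetus 5 alone it was -3.94 and passed (edgeR adjusted p = 0.0393). Among the adult samples, the intestinal genes summed to at most 48.2 CPM, and their part in the adult Tfec levels was not tested.

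Mitf was 12.9, 6.52 and 4.48 CPM in control fetuses and 17.1, 8.71, 12.1, 15.8 and 8.05 CPM in dysmorphic fetuses (0.62 ± 0.389, edgeR adjusted p = 0.418). Its lowest values were in the fetuses with intestinal or stomach transcripts, and without the intestinal ones the difference was 0.0846 ± 0.399 (edgeR adjusted p = 0.959), and 0.24 ± 0.287 (0.756) without the stomach one as well. Mast cell genes summed to 341 to 1728 CPM in dysmorphic and 27.6 to 282 CPM in control fetuses, and macrophage genes to 336 to 612 against 197 to 237 CPM. Pigment cell genes summed to 162 to 279 CPM in dysmorphic and 94.2 to 109 CPM in control fetuses, and 2 of the 11 were called as higher, with 10 at an unadjusted p under 0.05 and a median log2 fold change of 3.08. Of the macrophage genes 2 of 14 were called as higher, and of the mast cell genes 0 of 6, beside the 2.67% of all genes called. Skeletal muscle genes summed to 2530 to 5844 against 1068 to 1325 CPM (5 of 7 called as higher), and proximal tubule genes to 43.5 to 865 against 1200 to 1449 CPM (0 of 10 called, 8 at an unadjusted p under 0.05). Their part in the Mitf level was not tested. Tfe3 was nearly constant in control fetuses at 16.3 to 16.7 CPM and ran from 14.1 to 22.1 CPM in dysmorphic fetuses (-0.01 ± 0.173, edgeR adjusted p = 0.979). Aspscr1 was 17.3 to 24.5 CPM in controls and 14.2, 12.6, 12.7, 20 and 19.4 CPM in dysmorphic fetuses (-0.38 ± 0.222, edgeR adjusted p = 0.383). With the part of the title that littermates may share as a block, the adjusted p of Aspscr1 was 0.0615. Tfeb (-0.0904 ± 0.251) and Vcp (0.13 ± 0.103) had edgeR adjusted p-values of 0.88 and 0.528. Without the 3 fetuses with intestinal transcripts the differences were 0.027 ± 0.314 for Tfe3, 0.27 ± 0.318 for Tfeb, -0.31 ± 0.316 for Aspscr1 and 0.26 ± 0.162 for Vcp, and edgeR called 0 of 24255 genes. Without the stomach fetus as well they were 0.0938 ± 0.309, 0.29 ± 0.352, -0.25 ± 0.312 and 0.30 ± 0.166, and edgeR called 1696 of 23652 genes but no member.

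**Figure D4:**
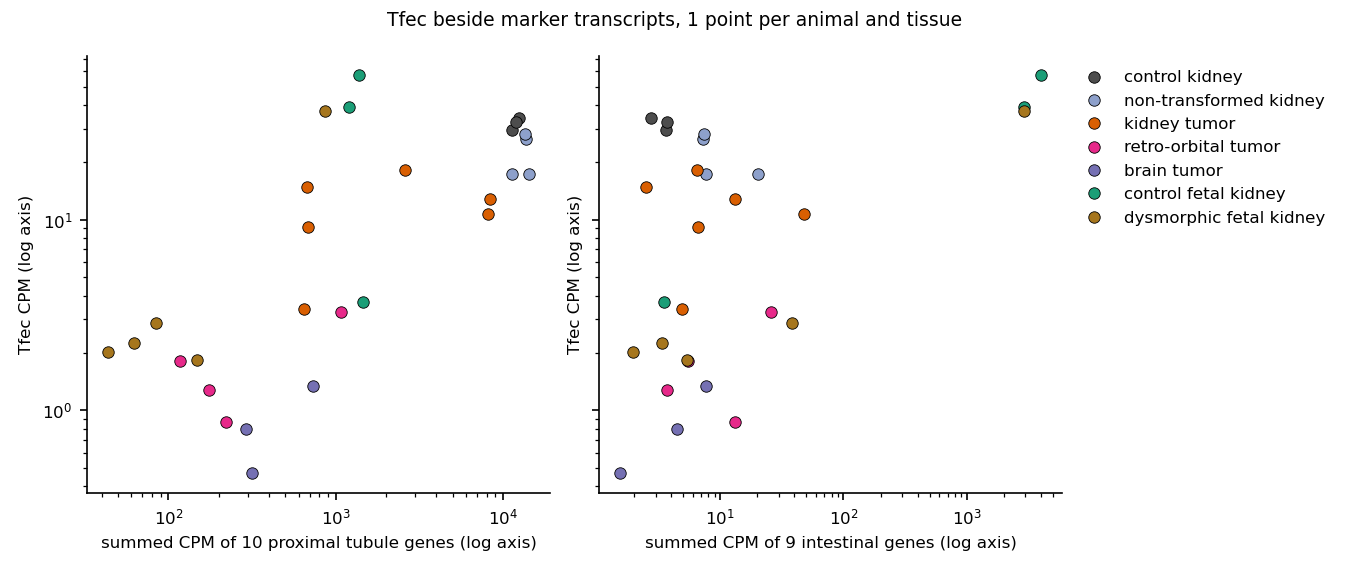
Tfec CPM against the summed CPM of 10 proximal tubule genes (left) and of 9 intestinal genes (right), both axes logarithmic, with a point per animal and tissue colored by group. On the right, 3 fetal samples stand apart at 2936 to 4027 CPM of intestinal genes and 37.3 to 57.2 CPM of Tfec.

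Control fetal kidneys were also compared with control adult kidneys, which differ in age, in genotype as labelled, in cell makeup and in the deposited table, and these cannot be told apart. Proximal tubule genes summed to 1200 to 1449 CPM in the fetal against 11400 to 12490 CPM in the adult kidneys (8 of 10 called as lower), proliferation genes to 2651 to 2835 against 53.7 to 76.2 CPM (8 of 8 called as higher) and skeletal muscle genes to 1068 to 1325 against 30.2 to 54.6 CPM (5 of 7 called as higher and 1 as lower). Mitf was 4.75-fold lower in the fetal kidneys (-2.25 ± 0.394, edgeR adjusted p = 0.00422), Tfeb 2.19-fold lower (-1.13 ± 0.264, 0.0128) and Aspscr1 1.74-fold lower (-0.80 ± 0.183, 0.0117). Tfeb was 4.72, 6.59 and 7.76 CPM in control fetuses against 10.8, 15.7 and 16.1 CPM in adults, and Aspscr1 18.8, 17.3 and 24.5 against 31.6, 39.2 and 36.8 CPM. None of these groups overlapped, and nor did those of Tfe3 (-0.38 ± 0.164, edgeR adjusted p = 0.1). Thus 3 of 6 genes were called, all lower, where edgeR called 49.0% of 22859 genes and 23.9% as lower, and the groups stayed apart for 60.9%. Vcp did not differ by more than its spread, at 382 ± 27.3 CPM in fetal and 382 ± 34.6 CPM in adult kidneys (0.02 ± 0.13, edgeR adjusted p = 0.892). Without control fetuses 2 and 3, Mitf (-1.57), Tfeb (-1.58) and Aspscr1 (-0.93) stayed called at edgeR adjusted p-values of 0.00336, 0.0122 and 0.0123, and Tfec changed from 0.08 ± 0.803 (edgeR adjusted p = 0.94) to -3.11 ± 0.203 (0.000325), on 1 fetus assumed to vary like the adults. Tfe3 was then -0.38 ± 0.234 (0.243) and Vcp -0.11 ± 0.161 (0.63). Tfec was also called, as higher in the fetuses, with sex as a covariate (0.62, edgeR adjusted p = 0.0404) and without control fetus 1 (0.60, 0.0428). The Tfeb call was lost without control mouse 2 or 3 (0.051 and 0.0529), the Aspscr1 call against a 1.5-fold change (0.117), in a range of 0.00193 to 0.117 over 11 alternatives, and Tfe3 passed without control mouse 1 (0.037).

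The Mitf difference from controls was then compared between the models. It was -1.05 in adult kidney tumors against control kidneys and 0.62 in dysmorphic against control fetal kidneys. These were -1.66 ± 0.448 apart (edgeR adjusted p = 0.0327). Age, Cre driver, tissue, cell makeup and deposited table differ between the models, and these and the fusion cannot be told apart. Mitf was the only call among the 6 genes, where 8.94% of 24444 genes were called and the median difference over all genes was 0.16. The call held in 6 of 8 alternatives, with an adjusted p from 0.00338 to 0.281, and in 10 of 17 fits that left out an animal. Without the 3 fetuses with intestinal transcripts it was -1.13 ± 0.472 and was not called (edgeR adjusted p = 0.281). Leaving out control mouse 2 or 3, control fetus 2 or 3, or dysmorphic fetus 1, 3 or 4 also ended it, at adjusted p-values of 0.0793, 0.0897, 0.0883, 0.082, 0.0687, 0.0583 and 0.0532. For the other 5 genes the difference was 0.36 ± 0.31 (Tfe3), -0.54 ± 0.336 (Tfeb), 0.43 ± 1.36 (Tfec), 0.03 ± 0.296 (Aspscr1) and 0.16 ± 0.201 (Vcp). Without the fetuses with intestinal transcripts these were 0.29, -0.92, -0.79, -0.0581 and -0.00087, and none was called.

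**Figure D5:**
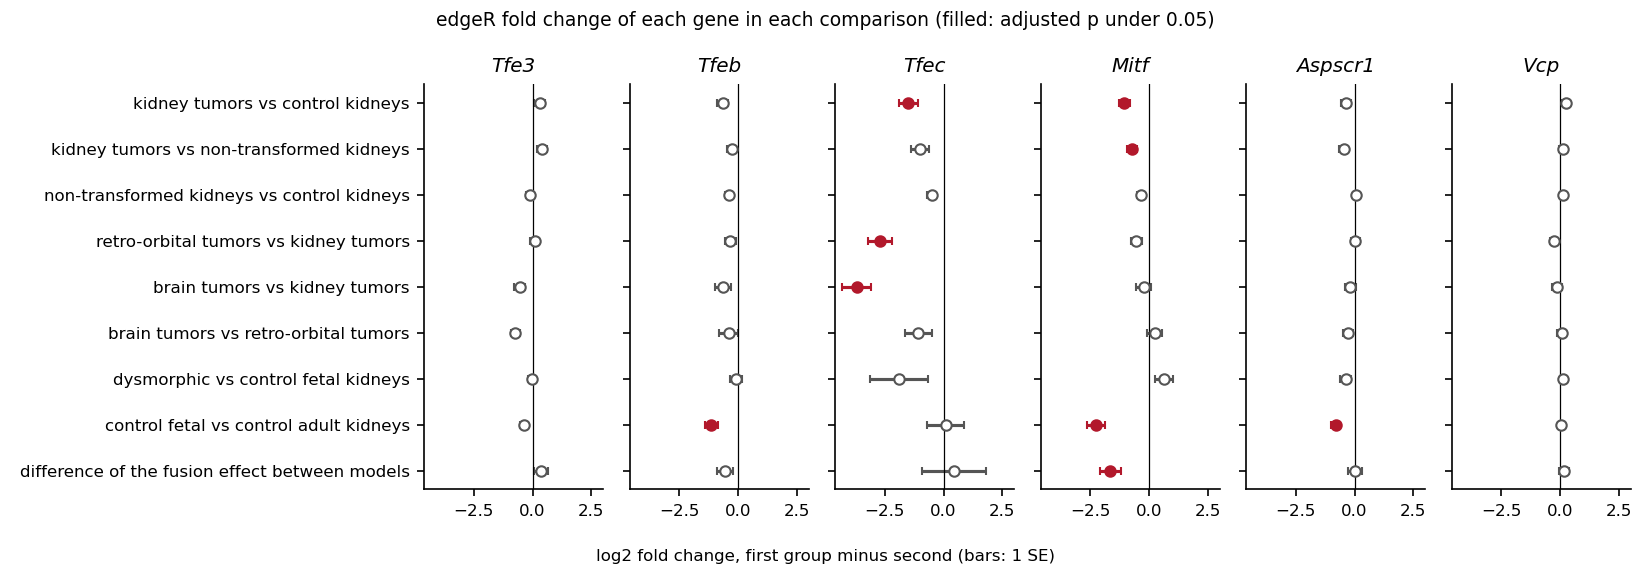
Log2 fold change (edgeR, first group minus second) of each of the 6 genes in the 8 comparisons and for the difference of the fusion effect between models, with bars of 1 SE and filled red points where the adjusted p was under 0.05. All filled points lie left of 0, for Tfec, Mitf, Tfeb and Aspscr1, and none is filled for Tfe3 or Vcp.

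In the order of mean levels over the 7 groups, Tfe3 ran from retro-orbital tumors (29.8 ± 2.42 CPM) and kidney tumors (27.5 ± 6.36) through control kidneys (21.9 ± 3.5), non-transformed kidneys (20.1 ± 2.52) and brain tumors (18.3 ± 2.34) to dysmorphic (16.7 ± 3.26) and control fetal kidneys (16.6 ± 0.214). Tfeb ran from control kidneys (14.2 ± 2.95 CPM) to brain tumors (5.68 ± 2.6), and Mitf from control kidneys (38.4 ± 5.33 CPM) to control fetal kidneys (7.96 ± 4.38). Tfec ran from control fetal (33.3 ± 27.2 CPM) and control kidneys (32.1 ± 2.24) to brain tumors (0.867 ± 0.437), but the first of these means rests on the 2 control fetuses with intestinal transcripts, and the third held 3.71 CPM. Aspscr1 ran from non-transformed kidneys (37.6 ± 2.72 CPM) to dysmorphic fetal kidneys (15.8 ± 3.64). Vcp spanned only 382 ± 27.3 to 462 ± 72.4 CPM. Of the 36 pairs of neighbours in these orders, only dysmorphic fetal kidneys against retro-orbital tumors for Tfec passed edgeR's test in a fit of all 7 groups (2.36 ± 0.834, adjusted p = 0.0261), and that group mean rests on dysmorphic fetus 5. Over all 21 pairs of groups, edgeR called 7 for Tfe3, 8 for Tfeb, 9 for Aspscr1, 10 for Tfec and 11 for Mitf, beside 33.5% of all tests over genes and pairs. For Vcp the lowest adjusted p was 0.133.

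The genes whose pattern over the 28 samples was most like each member were named by Pearson's r of log2(CPM + 1) among 12514 genes with a mean of at least 2 on that scale, as a description. For Tfec they were Myo7b (r = 0.962), Myo15b (0.958) and Lpcat3 (0.956). Myo7b encodes a myosin of brush border microvilli, a structure shared by the proximal tubule and the intestine. Those r values stayed at 0.963, 0.957 and 0.946 over the 20 adult samples. For Mitf they were Ctsf (0.913), a lysosomal cathepsin, Zc3h12c (0.912) and Glul (0.898), the glutamine synthetase. For Tfe3 they were Pla2g15 (0.909), the lysosomal phospholipase, Rela (0.886), a subunit of NF-kappaB, and Osbpl11 (0.884). Cluh (0.922), Tmco4 (0.918) and Apba3 (0.906) were closest to Tfeb, and Acsf3 (0.933), Arhgef18 (0.928) and Samm50 (0.92) to Aspscr1. Vcp had the weakest likeness, at 0.843 for Fbxw8, 0.817 for Hdlbp and 0.795 for Surf4. Among the members, Tfec and Mitf had an r of 0.231 over all 28 samples and 0.778 over the 20 adult samples, and Tfe3 and Tfec -0.12 and -0.18. The points share mice and libraries.

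The wider pathway around the factors was read from lists of genes chosen with earlier results of these data known. Of 24 genes of the Rag GTPase and mTORC1 axis, which holds the factors in the cytoplasm, edgeR called 11 as higher and 0 as lower in kidney tumors against control kidneys, where it called 12.5% of all genes as higher and 6.51% as lower. Their median log2 fold change was 0.36 beside 0.0457 over all genes. Rragb, a Rag GTPase, was 5.04 ± 0.388 higher on the log2 scale, Fnip2, a folliculin partner, 2.29 ± 0.288 and Tsc1, an mTORC1 inhibitor, 1.76 ± 0.242. Of 20 lysosomal and autophagy genes that carry the CLEAR motif of these factors, 14 were called as higher and 0 as lower against the same shares of all genes, with a median of 1.57. The largest rises were those of Gpnmb (11.21 ± 0.554), a lysosomal and melanosomal glycoprotein, Gla (5.15 ± 0.509), the alpha-galactosidase, and Ctsd (2.86 ± 0.349), a cathepsin. In dysmorphic against control fetal kidneys, where 2.67% of all genes were called, only Ctsk of the 20 was (2.29 ± 0.379), with 3 genes at an unadjusted p under 0.05. Without the fetuses with intestinal transcripts Ctsk was 2.11 ± 0.686 (edgeR adjusted p = 0.302), and without the stomach fetus as well 2.36 ± 0.292 (0.00973). The difference between the models was called for 10 of the 20, where 8.94% of all genes were called. In each of the 10 the change from controls was more positive in the adult model, as for 6.87% of all genes. Levels of these genes were not compared between adult tumors and fetal kidneys. Without the fetuses with intestinal transcripts it was called for 1 of the 20, where 2.16% of all genes were, and without the stomach fetus as well for 4, where 3.36% were.

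Genes that work with VCP and with the Aspscr1 protein were read in the same way. Of 32 VCP cofactors, 3 rose and 3 fell in kidney tumors against control kidneys, with a median of 0.0231, a share near the 19.0% of all genes that were called there. Zfand2a, a stress-induced ubiquitin-binding protein, rose by 3.06 ± 0.59, Atxn3, a deubiquitinase, by 0.90 ± 0.191 and Faf1 by 0.86 ± 0.188. Ubxn2b fell by 0.91 on the log2 scale, Yod1 by 0.67 and Ngly1, the cytosolic N-glycanase, by 0.60. In control fetal against adult kidneys 18 of the 32 fell and 0 rose (median -0.56, beside 0.0308 over all genes), where 23.9% of all genes fell. There 9 of the 24 Rag and mTORC1 genes and 5 of the 20 CLEAR genes also fell, and 1 of each rose (medians -0.31 and -0.47). Without the control fetuses with intestinal transcripts, which leaves 1 control fetus, the median was -0.56 for the VCP cofactors. It was -0.55 for the Rag and mTORC1 genes and -1.18 for the CLEAR genes, beside -0.041 over all genes. Of 9 genes of GLUT4 storage vesicles, 2 rose and 0 fell in kidney tumors, where 19.0% of all genes were called and 12.5% as higher. Stx4a, the plasma membrane syntaxin, rose by 1.13 ± 0.199 and Sort1 by 1.01 ± 0.308. In retro-orbital against kidney tumors, where 17.7% of all genes were called, 2 of the 9 rose and 1 fell. Slc2a4, which encodes GLUT4 itself, rose by 2.10 ± 0.486 and Stx4a by 0.61 ± 0.165, and Sort1 fell by 1.10. Among 18 other genes for E-box binding proteins, 1 rose and 1 fell in kidney tumors against controls, where 19.0% of all genes were called. Bhlhe41, a circadian repressor, rose by 4.51 ± 0.427, and Mlxipl, the carbohydrate-responsive factor ChREBP, fell by 1.34. Against kidney tumors, the log2 fold change of Mlxipl was -4.05 in retro-orbital and -4.88 in brain tumors. Srebf1 (-0.82) and Srebf2 (-0.63), the sterol-responsive factors, were also called as lower in retro-orbital tumors, which made 3 of 18 where 9.45% of all genes were, and Mlxipl was the 1 called in brain tumors. Of 17 genes that are other fusion partners or paralogs of partners of TFE3 and TFEB, 2 rose in kidney tumors, Dvl2 (1.31 ± 0.27) and Med15 (0.78 ± 0.206), and 4 fell, with Malat1 the most (by 1.17), where 19.0% of all genes were called in either direction.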

How the data were processed

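RNA-seq was made from formalin-fixed, paraffin-embedded tissue as stranded total RNA libraries without removal of ribosomal RNA, per the labels. The values are the authors' unnormalized gene counts, deposited as a table of 28 Sglt2-Cre libraries and a table of 8 Pax8-Cre libraries. The submitters' processing notes name FastQC, MultiQC, Bowtie2 and STAR 2.5.2a, and builds GRCm38 and mm10. The counter was not given in the sources used here.

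Libraries of an animal and tissue were summed. Each comparison was fitted alone with the edgeR 4.0.16 quasi-likelihood F-test (R 4.3.3), with TMM scaling and filterByExpr. The SE of a log2 fold change was taken from F, as its size over the root of F. P-values were adjusted by Benjamini-Hochberg over all genes tested, and 0.05 was the limit. DESeq2 1.42.0 and limma 3.58.1 (voom) were alternatives. Fits were tested on simulated counts. Replicates were animals, and numbers 1 to 6 name mice in order of their labels. Tumors and non-transformed kidneys share mice, so the block is real. Same-mouse deviations correlated at -0.04 to 0.16 for non-transformed kidneys, 0.24 to 0.32 for retro-orbital tumors and -0.07 to -0.06 for brain tumors. Sex was read from Y-linked genes: all control mice were female and fusion mice 1 and 5 male. Of the gene IDs, 53274 matched GENCODE M21 without version and 50604 with it.

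Members, lists and tests were chosen with earlier results of these data known. Named genes were all members, up to 3 called rises and 3 called falls per list and comparison, markers beside a member, and the 3 most similar genes per member. The paper linked to the series describes another model and served for style only.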

Additional observations from a re-analysis of the deposited data

Results flagged for a closer look

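Of 24 sets of 4 to 6 animals examined for a value far from the rest (a gene in a group), 3 held one, and chance alone gives about 1 in 20, or 1.2. Tfec was 37.3 CPM in dysmorphic fetus 5, where the next highest of the group was 2.87 CPM, and this library held 2941 CPM of intestinal genes. Aspscr1 was 41.5 CPM in the kidney tumor of fusion mouse 5, where the next highest was 28.8 CPM. The same mouse had the lowest Aspscr1 of the non-transformed kidneys, 33.5 CPM where the next was 38.7 CPM, so the kidney tumor of this mouse was the only 1 of 4 above its own non-transformed kidney. That mouse gave a single kidney tumor library. The Mitf difference from controls, adult model minus fetal model, was -1.66 on the log2 scale (edgeR adjusted p = 0.0327), by a test of the difference itself. It was not called without the fetuses with intestinal transcripts. Age, Cre driver, tissue and deposited table also differ between the models, and these and the fusion cannot be told apart.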

How the results depend on the processing

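Of 92 repeats of a count of called members other than left-out animals, 76 kept it within 1.5 times. In kidney tumors against control kidneys (2 called) it was 0 against a 1.5-fold change, 1 with all 7 groups in 1 fit and 4 when libraries were not summed, and 0 to 3 when an animal was left out. Against non-transformed kidneys (1 called) it was 0 without a filter, against a 1.5-fold change, in the fit of all groups, with sex as a covariate and with the replicate block of the mouse, 2 when libraries were not summed and 3 with limma-voom, and 0 to 1 with an animal left out. For brain against kidney tumors (1) it was 2 in the fit of all groups and 0 with the replicate block, and 0 to 1 with an animal left out. For retro-orbital against kidney tumors (1) it was 0 to 2 with an animal left out, and the block changed no call. For brain against retro-orbital tumors (0) it was 1 with DESeq2 and 1 in the fit of all groups. For dysmorphic against control fetal kidneys (0) it was 0 to 1 with an animal left out, and a replicate block of the shared part of the title called 0 members and 409 genes in place of 605. For fetal against adult kidneys (3) it was 2 to 4 with an animal left out. For the difference between models (1) it was 0 against a 1.5-fold change, 0 without the fetuses with intestinal transcripts, an alternative chosen after seeing the data, and 0 to 1 with an animal left out. The replicate block called 847 genes in place of 3755 for kidney tumors against non-transformed kidneys. The causes were not tested.

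Signs turned only for values that were not called in either fit, except Tfec in fetal kidneys. In dysmorphic against control fetuses, Tfe3 became 0.0226 (upper quartile scaling), 0.00902 (all groups in 1 fit), 0.0388 (sex), 0.027 and 0.0938 (without the fetuses with intestinal, or also stomach, transcripts), and -0.14 to 0.0456 with an animal left out. Tfeb there became 0.0668 (sex), 0.27 and 0.29 (without those fetuses), and -0.28 to 0.10. In fetal against adult kidneys, Tfec became -0.60 (limma-voom) and -3.11 (without the fetuses with intestinal transcripts), and -0.58 to 0.60 with an animal left out. Vcp there became -0.0287 (no filter), -0.0014 (all groups) and -0.11 (without those fetuses), and -0.0779 to 0.0658. For the difference between models, Aspscr1 became -0.0558 (RLE), -0.0269 (upper quartile), -0.0411 (no filter), -0.0894 (mean of at least 1 CPM), -0.0562 (DESeq2), -0.11 (every library) and -0.0581 (without those fetuses), and -0.24 to 0.12 with an animal left out. Without those fetuses Tfec became -0.79 and Vcp -0.00087, and with an animal left out they ran from -0.34 to 2.46 and -0.0167 to 0.24. With an animal left out, the range was -0.0087 to 0.14 for Aspscr1 in non-transformed against control kidneys and -0.0899 to 0.31 in retro-orbital against kidney tumors. In brain against kidney tumors it was -0.41 to 0.14 for Mitf and -0.35 to 0.0922 for Vcp, and in brain against retro-orbital tumors -0.0048 to 0.52 for Mitf and -0.0479 to 0.25 for Vcp. A block was not run for brain against retro-orbital tumors, which share only mouse 2, and limma-voom could not be fitted there. Each fetus gave 1 library, so the fits by library do not apply to the fetal comparison.

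The lowest member count in an animal was 55 and groups held 3 to 6 animals, and which of depth and animal number limits these results was not tested. Removing a control mouse ended calls in each comparison that used them and had any. With the longest transcript in place of all exons, levels per kilobase in control kidneys moved from 2.5 to 6.05 for Tfeb, from 7.52 to 17.4 for Aspscr1, from 5.74 to 9.48 for Tfec and from 2.36 to 3.46 for Tfe3. Mitf moved from 6.19 to 7.86, so that Tfec then stood above Mitf, and Vcp from 78.8 to 115.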
